A study of Mus musculus with 2 samples.

Results

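The cytosolic chaperones and heat shock genes are 50 genes taken by symbol from a list of heat shock proteins, cytosolic and mitochondrial chaperones, their co-chaperones, chaperonin subunits and heat shock factors. Each symbol matched 1 of the 55487 genes that the deposited tables list. RNA had been sequenced in 2 libraries of sorted pancreatic islet beta cells from mice 2 months old, and both libraries belong to 1 group. Their genotype label joins MytF/F, Myt2F/F and Myt3F/F, floxed alleles of the Myt zinc-finger transcription factors, with RipCre, a Cre recombinase driven by the rat insulin promoter. The label gives the sex as pooled male and female, and the marker used for the sort is not given in the sources used here. Islets had been taken apart in 0.25% trypsin at 37 degrees for about 5 minutes before sorting, so both libraries share that handling. Control cells were not analysed here, so no value below compares the mutant cells with others. Library 2 is labelled a duplicate, with no word on whether other mice were used, so differences between the libraries measure only the spread between these samples, which may be technical.

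Library 1 held 50121771 counted reads and library 2 held 39003197, and 3 reads, the limit that a count of 0 allows, corresponded to 0.0599 and 0.0769 CPM, reads scaled to a library total of 1000000. All 10 beta-cell markers were detected, and took 18.2% of library 1 and 18.6% of library 2. The targeted genes were counted at 77.6 and 65.4 CPM (Myt1), 44.5 and 39.0 CPM (Myt1l, also known as Myt2) and 72.7 and 56.5 CPM (St18, also known as Myt3). Those counts sum all exons of a gene and so do not check the deletion. Of the other lists of cell-type markers, acinar markers stood furthest apart, summing to 134 and 606 CPM in libraries 1 and 2 (12 of 14 detected, Prss1 at 0 in both). Sums in library 1 and library 2 were 1401 and 1158 CPM for alpha cells (6 of 7 markers detected), 1660.0 and 1247 CPM for delta cells (5 of 5), 979 and 1215 CPM for PP cells (3 of 3) and 929 and 1224 CPM for ductal cells (5 of 6). Endothelial markers (5 of 6), mesenchymal markers (5 of 6), immune markers (2 of 8) and glial markers (2 of 4) lay between 9.87 and 53.9 CPM in sum in either library. In bulk RNA, fewer cells of a type and less RNA per cell cannot be told apart.

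Chaperones hold newly made or damaged proteins in a state from which they can fold. Members of the HSP70 family bind short hydrophobic stretches of a client in a cycle of ATP hydrolysis that J-domain proteins start and nucleotide exchange factors complete, HSP90 acts later on kinases, steroid receptors and other clients, and the ring-shaped chaperonins enclose a client in a chamber. Heat shock factor 1 induces many of these genes by binding heat shock elements, which are inverted repeats of the unit GAA in their promoters. Beta cells make large amounts of insulin in the endoplasmic reticulum, whose own chaperones are distinct from the cytosolic and mitochondrial ones described here.

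The promoter sequences are shown first because heat shock elements are what many of these genes are known to share. Promoter windows from RefSeq on GRCm38.p6, from 250 bases before to 50 bases after a start site, were listed for 42 of the 50 members, in 58 windows. None was listed for Cct4, Cryab, Hsf1, Hsf4, Hsp90aa1, Hsp90ab1, Hspa8 and Hspa9. A heat shock element of 3 units, in which GAA and its reverse complement TTC alternate with NN, any 2 bases, between them and either may come first, was found on either strand in windows of 5 of the 42 members (11.9%), against 179 of the 27025 genes in the promoter table (0.662%). These were Hspd1, Hspe1, Chordc1, Dnajb6 and Hsph1. A shorter match of 2 units, GAANNTTC or TTCNNGAA, each its own reverse complement, was found for 19 of the 42 members (45.2%) and for 17.0% of the 27025 genes, and every 3-unit match contains such shorter ones. Hspd1 and Hspe1 were counted separately in both shares, although their 3-unit matches lie in the same stretch. Hspa1a and Hspa1b, whose windows are nearly identical, were also counted separately in the 2-unit share. A match is a stretch of letters and not a shown binding site. The search allowed no mismatch, so the lack of a match does not show that an element is absent.

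The stretches below are printed 5′ to 3′ on the strand of the gene, with matches in capitals (to 3 units, overlapping in Hspe1 and Chordc1, in the first 4 stretches, and to 2 units in the last) and positions counted from the start site.
Hspe1, chr1:55088028-55088107, plus strand, bases -120 to -41: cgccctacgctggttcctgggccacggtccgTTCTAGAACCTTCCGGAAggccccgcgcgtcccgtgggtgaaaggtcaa
Chordc1, chr9:18292207-18292291, plus strand, bases -60 to 25: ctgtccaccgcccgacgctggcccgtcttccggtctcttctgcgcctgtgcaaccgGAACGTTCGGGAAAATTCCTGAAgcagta
Dnajb6, chr5:29735818-29735897, plus strand, bases -80 to -1: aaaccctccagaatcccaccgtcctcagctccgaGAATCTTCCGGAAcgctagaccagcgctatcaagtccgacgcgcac
Hsph1, chr5:149636287-149636316, minus strand, bases 21 to 50: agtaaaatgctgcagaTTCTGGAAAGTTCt
Hspa1a, chr17:34972207-34972306, minus strand, bases -150 to -51: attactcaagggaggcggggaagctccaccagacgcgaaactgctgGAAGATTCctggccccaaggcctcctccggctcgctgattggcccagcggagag
The Hspe1 stretch also lies in a listed window of Hspd1, a gene head to head with Hspe1 on chromosome 1. For that window the start sites of the pair stand 216 bases apart, and 285 of its 300 bases are shared with the Hspe1 window. A further listed window of Hspd1, chr1:55088194-55088493, held no match to 3 or 2 units. In Chordc1, the first of 3 overlapping matches runs across the start site, and the others lie downstream of it. In Hsph1 the match lies downstream of the start. Hspa1b has the same 100 bases as Hspa1a at chr17:34959289-34959388 on the minus strand, and 296 of 300 bases of the full windows of these neighbours were identical.

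Transcript levels of the members were high as a group and spread over 3 orders of magnitude. Of the 50 genes, 49 were detected, meaning 1 CPM or more in both libraries, whereas 24.4% of all listed genes were. These shares are of unlike sets. All 50 members are protein-coding genes chosen with earlier results of these data known, whereas the listed genes include pseudogenes. Of the 58 other chaperone genes described below, 6 were not detected. Scaled by gene length as TPM, the transcript share that allows genes to be compared, the members had a median of 54.3 TPM in library 1 and 56.6 TPM in library 2, against a median of 14.1 TPM over the 13955 genes whose mean reached 1 CPM. A total of 43 members lay above that median and 20 lay above the percentile of 90 among those genes. The members summed to 0.614% of library 1 and 0.610% of library 2. The 5 highest, Hsp90ab1, Hspa1b, Dnajb1, Hspa8 and Hsp90aa1, held 44.4% and 40.7% of the summed TPM of the 50. Members were ordered by mean TPM, and in 15 of the 49 neighbouring pairs of that order the ranges of the libraries did not overlap. In the other 34 pairs the ranges overlapped, and 26 of these pairs changed order between the libraries. The rest kept their order in both libraries, though within overlapping ranges.

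**Figure D1:**
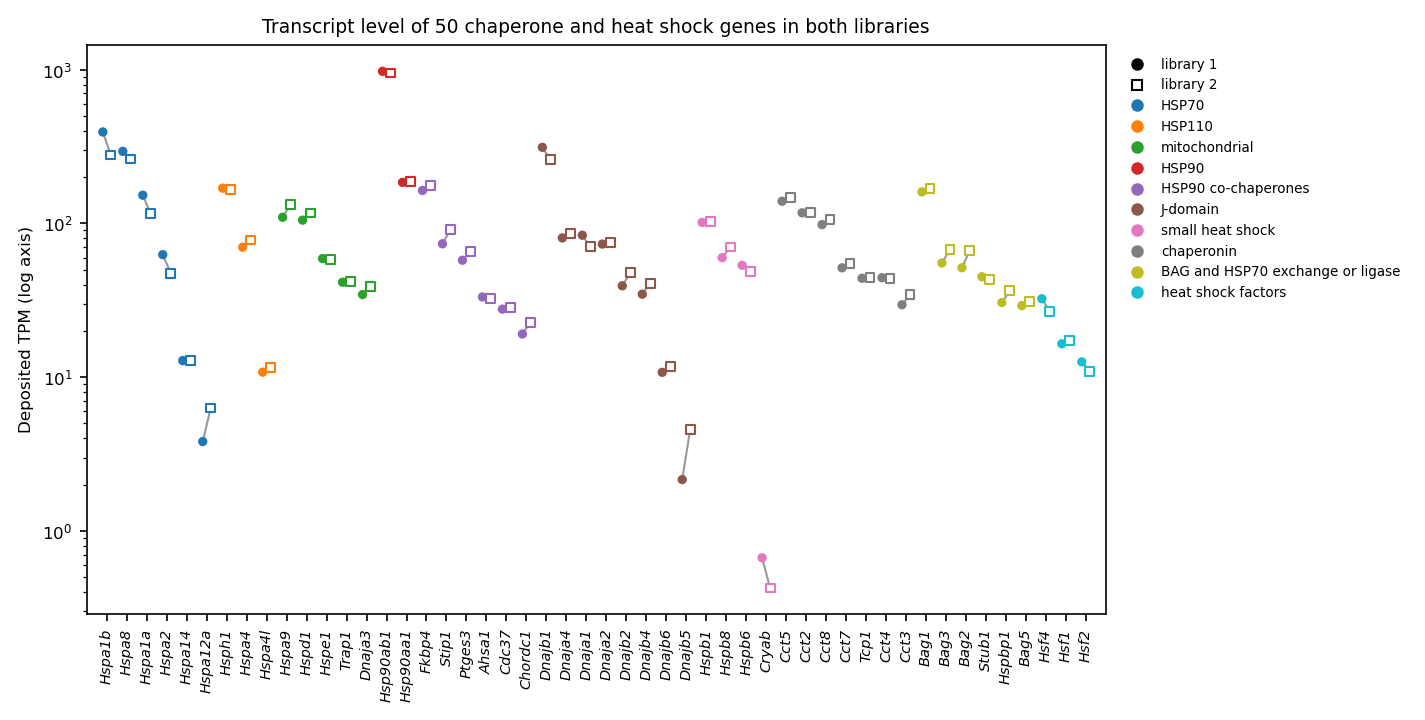
Deposited TPM (log axis) of the 50 members, grouped by role and ordered by mean within a role; filled circles are library 1, open squares library 2, and a line joins the values of a gene. Hsp90ab1 stands highest at 975 and 951 TPM, Cryab lowest at 0.669 and 0.425 TPM, and the values of Dnajb5 and Hspa12a are among the most separated.

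HSP90 was the most abundant of the chaperones. Hsp90ab1, the constitutive cytosolic form, stood at 975 TPM in library 1 and 951 TPM in library 2, a mean of 963 ± 17.3 TPM (SD, n = 2), and held 20.05% and 19.99% of the summed TPM of the members. Hsp90aa1, the form that stress induces, stood at 185 and 186 TPM. Length-scaled Hsp90ab1 exceeded Hsp90aa1 5.27-fold in library 1 (95% interval 5.17 to 5.38) and 5.10-fold in library 2 (4.99 to 5.21), a mean log2 ratio of 2.38 ± 0.03 (SD, n = 2). Of the sequence of Hsp90aa1, 47.5% of the 50-base words also occur in other genes, chiefly in the processed pseudogene Gm12346, which had 0.579 and 0.641 CPM in libraries 1 and 2. The count of Hsp90aa1 is therefore uncertain, since how reads with several matches were counted is not given in the sources used here. Only 3.44% of the words of Hsp90ab1 are shared. The mitochondrial relative Trap1 had 41.5 and 41.7 TPM, lower than Hsp90ab1 23.5-fold in library 1 and 22.8-fold in library 2.

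HSP90 co-chaperones covered a wide range of levels. Fkbp4, the immunophilin of steroid receptor complexes, led them at 164 and 177 TPM in libraries 1 and 2. Stip1, the adaptor that joins HSP70 to HSP90, had 73.7 and 91.2 TPM. Ptges3, which encodes the p23 co-chaperone that stabilises the closed form of HSP90, had 57.6 and 65.3 TPM. Both libraries placed Ptges3 above Ahsa1, an activator of the HSP90 ATPase with 33.3 and 32.4 TPM, at length-scaled ratios of 1.73 and 2.02, an order that turned without length scaling (mean log2 ratio of counts -0.078). The kinase co-chaperone Cdc37 had 27.7 and 28.3 TPM. Chordc1, a CHORD-domain co-chaperone, was the lowest of the 6 at 19.1 and 22.8 TPM. The last 3, Ahsa1, Cdc37 and Chordc1, did not overlap in their TPM ranges. Without length scaling the order differed. Cdc37, at 82.4 and 85.2 CPM in libraries 1 and 2, then stood below Fkbp4 alone. Chordc1, at 51.9 and 62.7 CPM, stood above Ptges3 at 46.4 and 53.2 CPM.

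In the HSP70 family the stress-inducible Hspa1b and the constitutive Hspa8 stood at like levels, above the other members. Hspa1b stood at 393 TPM in library 1 and 279 TPM in library 2, and its neighbour Hspa1a at 153 and 115 TPM. Hspa8, the constitutive cytosolic HSP70, stood at 294 and 263 TPM. The ranges of Hspa1b and Hspa8 overlapped, and the length-scaled ratio of Hspa8 over Hspa1b was 0.748 in library 1 and 0.942 in library 2, while Hspa8 had more reads without length scaling (mean log2 ratio 0.36). Hspa1b exceeded Hspa1a 2.58-fold and 2.42-fold in the libraries. Counts of these 3 genes are uncertain: 66.3% of the words of Hspa1a and 62.3% of those of Hspa1b occur in other genes, mainly in each other, and 39.4% of those of Hspa8 do. The processed pseudogene Gm15459, which shares 34.6% of the words of Hspa8, was itself counted at 112 and 109 CPM in libraries 1 and 2, against 459 and 415 CPM for Hspa8. Hspa1a (ENSMUSG00000091971) lies on chromosome 17 from 34969190 to 34972156 and Hspa1b (ENSMUSG00000090877) from 34956436 to 34959238, both on the minus strand with 1 exon (GRCm38, GENCODE M21), and 9951 bases separate them.

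The remaining HSP70 members were lower. Hspa2, best known as the testis HSP70, had 62.7 TPM in library 1 and 47.5 TPM in library 2. The ribosome-associated Hspa14 had 12.8 and 12.9 TPM. Hspa12a, a distant member of the family, had 3.82 and 6.30 TPM, the second lowest level among detected members. HSP110 proteins act as nucleotide exchange factors for HSP70, and among them Hsph1 was highest at 170 and 166 TPM. Hspa4 had 70.0 and 78.0 TPM and Hspa4l had 10.8 and 11.5 TPM. Hsph1 exceeded Hspa4 2.42-fold and 2.13-fold, and Hspa4 exceeded Hspa4l 6.498-fold and 6.77-fold (3.19-fold on average without length scaling), with no overlap of the ranges.

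J-domain proteins deliver clients to HSP70 and stimulate its ATPase, and their transcripts spanned from one of the highest to one of the lowest levels. Dnajb1, the heat-inducible partner of HSP70, stood at 312 and 259 TPM in libraries 1 and 2. It exceeded Dnaja1 3.73-fold and 3.68-fold per length, and Dnajb4 9.02-fold and 6.34-fold, against means of 1.38-fold and 2.76-fold without length scaling. Next came 3 members of the A class, close to one another on the TPM scale, with Dnaja4 at 80.5 and 85.8 TPM, Dnaja1 at 83.8 and 70.3 TPM and Dnaja2 at 73.4 and 74.9 TPM. Dnaja1 was the higher of Dnaja1 and Dnaja2 in library 1 and the lower in library 2, at ratios of 1.14 (95% interval 1.10 to 1.18) and 0.939 (0.902 to 0.978), whereas without length scaling the mean ratio was 3.004. The neuronal form Dnajb2 had 39.3 and 47.9 TPM, Dnajb4 had 34.6 and 40.9 TPM, and Dnajb6, a suppressor of polyglutamine aggregation, had 10.8 and 11.7 TPM. Dnajb5 was lowest, at 2.16 TPM in library 1 and 4.57 TPM in library 2. Exons of Wdr61 on the other strand lie over 44.1% of the exons of Dnaja4, and Wdr61 had 37.0 and 38.4 CPM against 105 and 113 CPM for Dnaja4, so without strand the count of Dnaja4 is uncertain.

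Mitochondrial chaperones import and fold proteins of the matrix. Hspa9, the mitochondrial HSP70 also called mortalin, stood at 110 TPM in library 1 and 133 TPM in library 2. Hspd1, which encodes the HSP60 ring, had 105 and 117 TPM, and Hspe1, which encodes its lid HSP10, had 59.0 and 58.3 TPM. Although the pair shares the promoter shown above, length-scaled Hspe1 was lower than Hspd1 1.78-fold in library 1 and 2.00-fold in library 2, and the mean ratio of Hspe1 over Hspd1 was 0.530 with and 0.295 without length scaling. Hspd1 (ENSMUSG00000025980, chromosome 1, 55077835 to 55088243, minus strand) and Hspe1 (ENSMUSG00000073676, 55088132 to 55091307, plus strand) overlap by 112 bases in GENCODE M21. Pseudogenes share sequence with both: 42.1% of the words of Hspd1 and 22.8% of those of Hspe1 occur in other genes, and all pseudogenes sharing words with Hspd1 summed to 0.379 and 0.154 CPM. The mitochondrial J-domain protein Dnaja3 had 34.5 and 38.7 TPM.

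Subunits of the cytosolic chaperonin, a ring that folds actin and tubulin, differed from one another more than between the libraries. Cct5 was highest at 139 TPM in library 1 and 147 TPM in library 2, followed by Cct2 at 117 and 118 TPM and Cct8 at 98.2 and 106 TPM. Cct7 had 51.4 and 54.99 TPM, and Tcp1 and Cct4 were close together with 44.0 and 44.5 TPM for Tcp1 and 44.4 and 43.9 TPM for Cct4. Cct3 was lowest at 29.6 and 34.3 TPM. The highest exceeded the lowest 4.71-fold in library 1 and 4.27-fold in library 2. On the CPM scale, without gene length, the order changed, with Cct4 lowest at 67.6 and 67.7 CPM in libraries 1 and 2. Cct5 stayed highest and Cct7 came next, at 126 and 137 CPM. On that scale the highest exceeded the lowest 2.07-fold and 2.20-fold. The spread per length thus depends on the lengths of merged exons used for the scaling. The subunit gene Cct6a, which is not on the list, had 57.0 and 69.7 TPM.

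Small heat shock proteins bind unfolding clients without ATP. Hspb1, or HSP25 in the mouse, had 101 TPM in library 1 and 103 TPM in library 2. Hspb8, which works with Bag3 in selective autophagy, had 59.8 and 70.2 TPM, and Hspb6 had 53.4 and 48.4 TPM. Length-scaled Hspb8 was lower than Hspb1 1.70-fold and 1.47-fold, an order that turned without length scaling (mean log2 ratio 0.26), and 50.1% of the words of Hspb1 occur elsewhere, chiefly in the pseudogene Hsp25-ps1 at 1.10 and 1.59 CPM. Cryab, the alpha-B crystallin of lens and muscle, was not detected at 1 CPM. It had 18 reads in library 1 and 9 reads in library 2, or 0.359 and 0.231 CPM, above the limit that a count of 0 allows.

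Among BAG proteins, which release the client from HSP70, Bag1 led at 160 and 168 TPM in libraries 1 and 2. Stress-inducible Bag3 had 55.3 and 67.7 TPM and Bag2, an inhibitor of the ligase CHIP, had 51.5 and 67.1 TPM. Bag5 was lowest at 29.2 and 31.1 TPM. Bag1 exceeded Bag3 2.90-fold and 2.49-fold per length, and 1.42-fold on average without length scaling. Stub1, which encodes CHIP, the ubiquitin ligase of the HSP70 machinery, had 45.0 and 43.2 TPM, and the exchange factor Hspbp1 had 30.6 and 36.6 TPM. Exons of Jmjd8 on the other strand cover 42.3% of the exons of Stub1, and Jmjd8 had 34.8 and 36.4 CPM against 41.9 and 40.6 CPM for Stub1, which leaves the count of Stub1 uncertain.

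All 3 heat shock factors on the list were detected, at levels well below those of most chaperones. Outside the list, Hsf5 (0.499 and 0.462 CPM in libraries 1 and 2) and Hsf3 (1 and 0 reads) were not detected. Hsf4, known for its role in the lens, had 32.4 TPM in library 1 and 26.8 TPM in library 2. Hsf1, the main factor of the heat shock response, had 16.5 and 17.3 TPM. Hsf2, which acts with Hsf1 and in development, had 12.6 and 10.9 TPM. Without length scaling Hsf4 was the lowest of the 3, at 20.6 and 17.2 CPM in libraries 1 and 2. Hsf1 had 42.5 and 45.0 CPM, and Hsf2 had 43.9 and 38.5 CPM. Length-scaled Hsf1 exceeded Hsf2 1.31-fold and 1.58-fold, against a mean of 1.06-fold without length scaling, where Hsf2 had more reads in library 1.

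**Figure D2:**
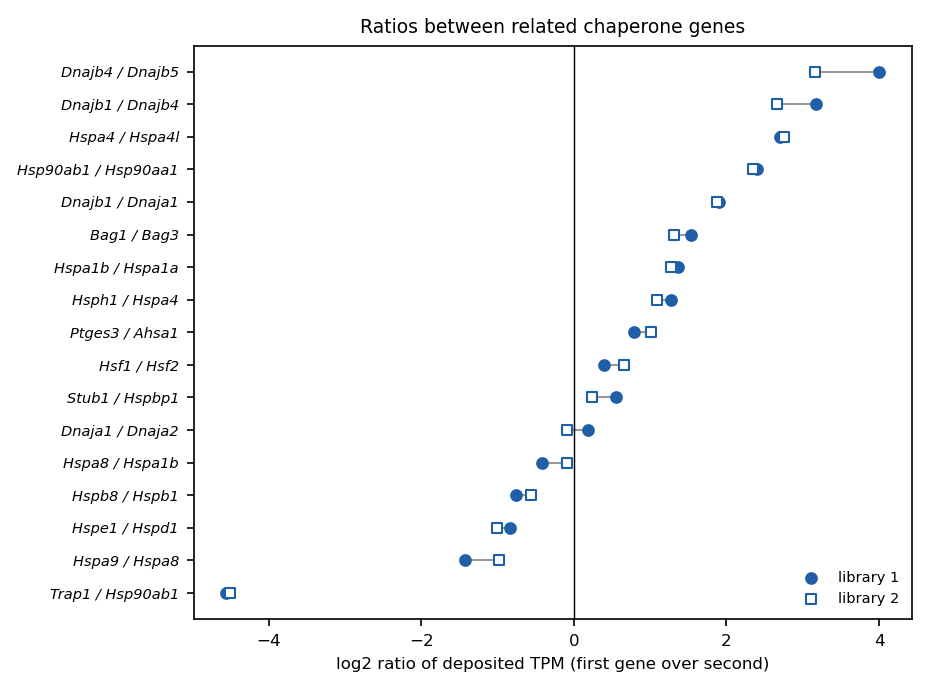
Log2 ratios of deposited TPM for 17 pairs of related members (first gene over second); filled circles are library 1, open squares library 2. Of these ratios, 11 lie above 0 and 5 below 0 in both libraries, and Dnaja1 over Dnaja2 changes side.

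Between the libraries, 1 member differed past the threshold. The reads of each gene were set against the library totals in an exact binomial test (two-sided), adjusted by Benjamini-Hochberg over 20681 genes with at least 10 reads, and a gene was called at an adjusted p under 0.05 together with a 2-fold ratio of CPM. This test compares the reads of these libraries, not conditions. It called 1 of the 50 members (2.0%), against 4.31% of all genes tested (1.91% lower and 2.4% higher in library 1). The called member was Dnajb5, a J-domain protein (ENSMUSG00000036052, chromosome 4, 42949814 to 42959425, plus strand). Its 233 reads in library 1 were 4.65 CPM, and its 389 reads in library 2 were 9.97 CPM. It was lower in library 1, at a log2 ratio of -1.10 (95% interval -1.34 to -0.86, adjusted p = 1.77e-19 by the exact binomial test). Markers of acinar cells were also lower in library 1, at the sums given above, and their part in the difference of Dnajb5 was not tested. Hspa12a, at 12.7 and 21.3 CPM, came next with a log2 ratio of -0.74 (-0.89 to -0.59, adjusted p = 3.29e-21 by the exact binomial test), which is past a 1.5-fold but not the 2-fold limit. At 1.5-fold, 2 of 50 members (4.0%) were called, both lower in library 1, against 8.05% of all genes (3.3% lower and 4.75% higher).

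The other members lay close to equal. In all, 47 of the 50 had a log2 ratio of less than 0.5 in size, the exceptions being Dnajb5, Hspa12a and Cryab. The median size of the log2 ratio was 0.15 over the members, 0.21 over all genes tested and 0.14 over those whose mean reached 1 CPM. The signed median was -0.09 over the members and 0.04 over all genes tested. Hsp90ab1, Hsph1 and Hsp90aa1 were nearly the same in library 1 and library 2, at 1062 and 1047 CPM, 447 and 442 CPM, and 264 and 269 CPM. Their adjusted p-values of 0.098, 0.48 and 0.28 by the exact binomial test missed the threshold, with intervals of the log2 ratio of 0.00 to 0.04, -0.01 to 0.04 and -0.06 to 0.01. These calls depend on the scaling: Hsp90aa1 passed as lower in library 1 with TMM factors (-0.070, adjusted p = 0.0011 by the exact binomial test) and with DESeq2 size factors (-0.071, 8.7e-04). Hsp90ab1 turned to -0.023 with TMM factors, where it missed the threshold (0.053), and to -0.024 with DESeq2 size factors, where it passed (0.040), and Hsph1 turned to -0.027 and -0.028 and did not pass.

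**Figure D3:**
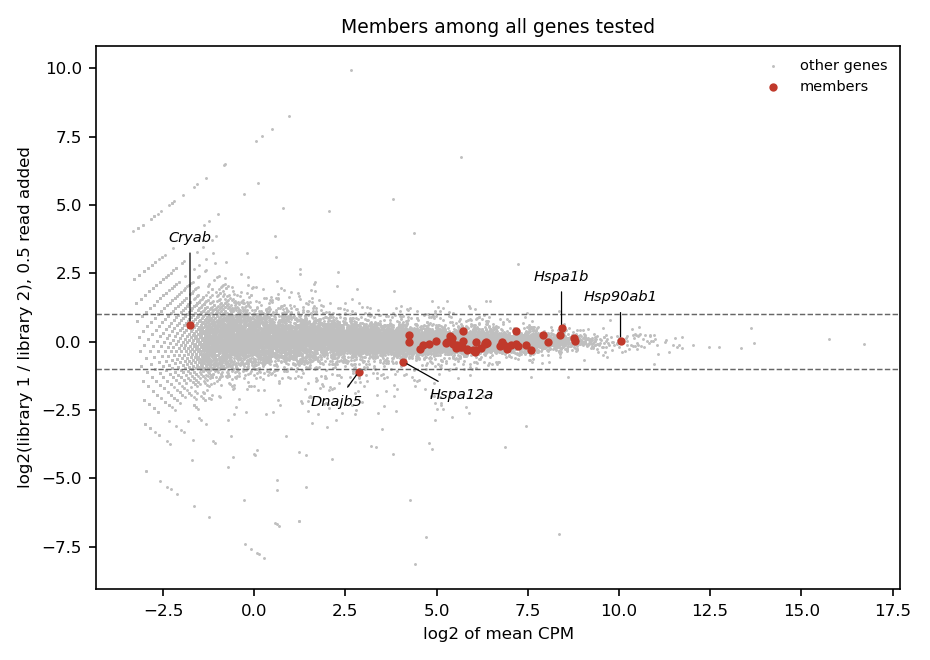
Log2 ratio of library 1 over library 2 (0.5 read added) against log2 of the mean CPM for the genes tested; grey points are other genes, red points the members, and dashed lines mark 2-fold. Members lie mostly at high CPM and near 0, and Dnajb5 lies beyond the lower line at -1.10.

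With no minimum on the fold, small differences of deeply counted genes pass. The test allows for sampling noise alone, and the libraries differed beyond it (chi-square per degree of freedom of 28.6, where sampling alone gives 1). A pass therefore does not measure the spread between samples. By the adjusted p alone, 32 of the 50 members passed (64.0%), against 32.4% of all genes tested; the members had a median of 5876 reads summed and all genes tested had 569. Of the 32 members, 9 were higher in library 1 (19.0% of all genes were) and 23 were lower (13.4% of all genes were). With TMM factors, 8 members passed as higher and 30 as lower, and the split over all genes turned, to 2976 higher and 3592 lower in place of 3930 and 2769. The 9 were Hspa1b, Hspa1a, Hspa2, Hspa8, Dnajb1, Dnaja1, Hsf4, Hsf2 and Hspb6. Of the 6 HSP70 members, 4 passed as higher and Hspa12a as lower. Of the 8 J-domain members, 2 passed as higher and 4 (Dnajb5, Dnajb2, Dnajb4 and Dnaja4) as lower. Hspa1b, with 400.2 and 287 CPM in libraries 1 and 2, had the largest log2 ratio among them, 0.48 (95% interval 0.45 to 0.51). Hspa1a followed at 164 and 126 CPM with 0.39 (0.34 to 0.44), and Hspa2 at 60.1 and 46.1 CPM with 0.38 (0.30 to 0.47). Dnajb1, at 363 and 305 CPM, had 0.25 (0.22 to 0.29), and Dnaja1, at 262.5 and 223 CPM, had 0.24 (0.20 to 0.28).

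Of the other roles, the chaperonin, HSP90 co-chaperone, BAG, mitochondrial and HSP110 groups had members that passed as lower in library 1 and none that passed as higher, against 13.4% and 19.0% of all genes. All 7 chaperonin subunits had ratios below 0, from -0.23 for Cct3 to nearly 0 for Cct4, and 4 of the 7 passed by the adjusted p alone. Of the 6 HSP90 co-chaperones, 4 passed and all 4 were lower in library 1, with Stip1 at 56.4 and 70.6 CPM and a log2 ratio of -0.32. Of the 6 genes of the BAG group, 4 passed and were lower, with Bag2 at 57.2 and 75.3 CPM and -0.40, and Bag3 at 51.4 and 63.7 CPM and -0.31. The pass of Bag1, at 78.5 and 83.4 CPM and -0.09 (adjusted p = 0.037 by the exact binomial test), was lost with no count filter (0.063). In the mitochondrial group, Hspa9 was lower at 172 and 211 CPM with -0.30, while Hspe1 was at 31.6 and 31.5 CPM with a ratio of 0.00. The 5 members with a 3-unit match in a listed promoter window had log2 ratios of -0.27 (Chordc1), -0.17 (Hspd1), -0.14 (Dnajb6), 0.00 (Hspe1) and 0.02 (Hsph1).

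**Figure D4:**
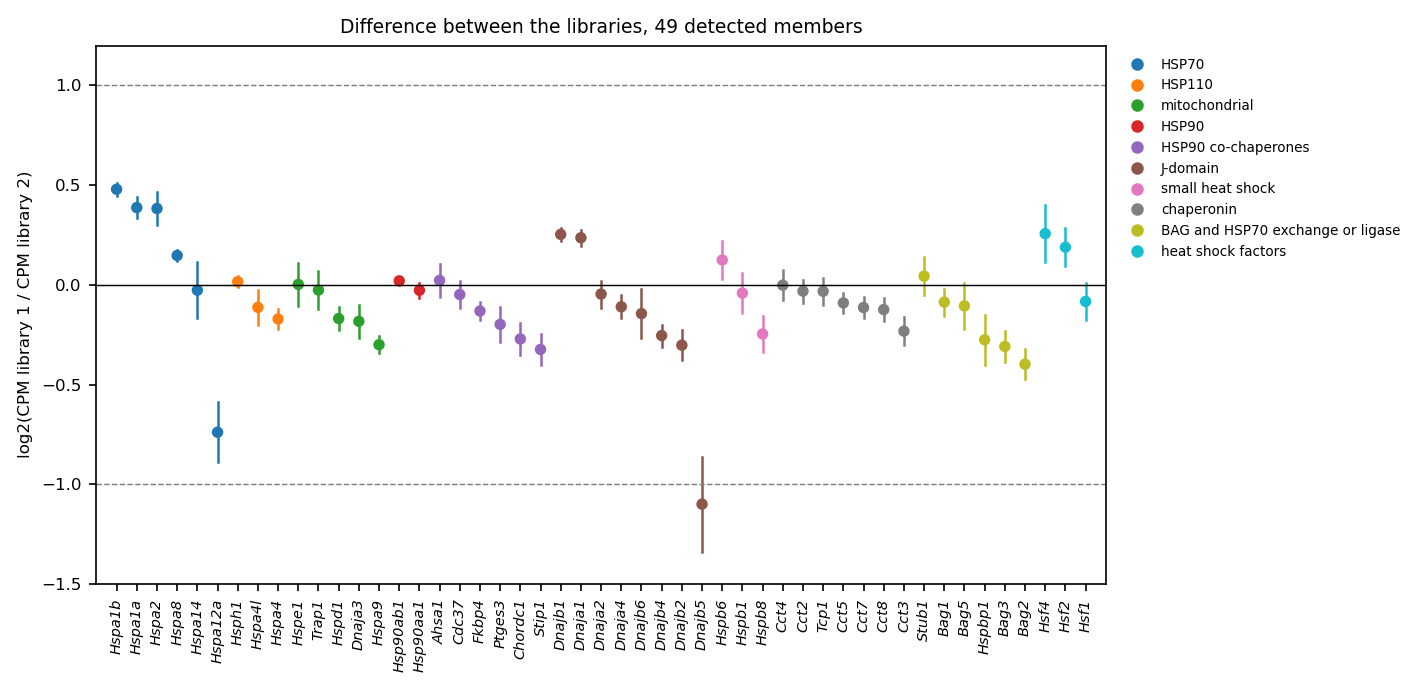
Log2 ratio of CPM in library 1 over library 2 for the 49 detected members by role; points are the ratios, vertical lines the exact 95% intervals (counting error only), and dashed lines mark 2-fold. Hspa1b, Hspa1a and Hspa2 stand highest, at 0.48, 0.39 and 0.38, and Dnajb5 lowest at -1.10.

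A further list of 58 genes of the chaperone network, which is not complete, was examined in the same way. Of these, 52 were detected in both libraries, and they had a median of 21.9 TPM, against 56.9 TPM over the members. The 3 highest were Hsbp1, which encodes a small protein that binds heat shock factor 1, at 413 and 478 TPM in libraries 1 and 2, the prefoldin subunit Pfdn5 at 127 and 124 TPM, and Nudc, a co-chaperone of HSP90, at 89.3 and 95.6 TPM. Hsbp1 was thus above every member other than Hsp90ab1 in both libraries. By the exact binomial test, none of the 54 tested was called at 2-fold (4.31% of all genes were), and 18 passed by the adjusted p alone (32.4% of all genes did). The largest difference that passed among these 58 was that of Dnajb13, a J-domain gene of cilia and sperm flagella. It had 6.14 and 3.87 CPM in libraries 1 and 2 and a log2 ratio of 0.66. Dnajb3, a J-domain gene on neither list, had 386 and 178 reads and a larger log2 ratio of 0.75, and also passed. The glucocorticoid-induced immunophilin gene Fkbp5 had 44.0 and 64.1 CPM, with a ratio of -0.54. Dnajb13, Dnajb3, Fkbp5, Cct6a, Hsf3 and Hsf5 were named after their values were seen.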

How the data were processed

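RNA of sorted beta cells was measured in 2 libraries of 1 group. Per the file headers, the deposited tables hold a raw count, a TPM and a CPM for each gene. The submitters' processing notes name the build GRCm38.p6, featureCounts 2.0.2, STAR 2.7.8a and cutadapt 2.10. Settings, strandedness and the treatment of multiply matching reads were not given in the sources used here. CPM equals the count over the library total (largest difference 1.82e-12). The TPM the authors deposited is scaled by gene length: in 48 of the 49 members with over 20 reads the implied length lay within 1% of the merged exons of GENCODE M21, and in the exception, Hspa4l, the difference was -2.47%.

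The members and gene lists were chosen with earlier results of these data known. All 50 members were described by role; in each role the highest and lowest, those called and those in the 17 pairs are given in both libraries. Of the other chaperone genes, the 3 highest and any called were to be named. The exact two-sided binomial test (scipy 1.17.1, 0.5 read added for ratios, 10 or more reads summed) was tested on simulated counts. Their noise was sampling noise alone, less than the spread between these libraries, so the simulation does not check the p-values given here. edgeR's quasi-likelihood test needs a second group and was not run; edgeR 4.0.16 and DESeq2 1.42.0 gave alternative scalings. The counts of the libraries differed beyond sampling noise, with a chi-square per degree of freedom of 28.6 where sampling alone gives 1, so they were kept as 2 samples. Intervals at 95% are exact Clopper-Pearson intervals and, like the limit of 3 reads, cover counting error only, because PCR copies among reads cannot be told from separate molecules. Shared sequence is the share of a gene's distinct 50-base words, on either strand, found in transcripts of other genes.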

Additional observations from a re-analysis of the deposited data

How the results depend on the processing

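No paired analysis was possible because both libraries belong to 1 group. Dnajb5 was the only member called at 2-fold under TMM factors, DESeq2 size factors, totals without insulin and mitochondrial genes, no count filter and 100 or more reads. At 1.5-fold, 2 members, 1 other chaperone gene and 1664 of all genes were called, and with no fold minimum 32, 18 and 6699, against 1, 0 and 892 as reported; 100 or more reads left 335 of all genes. By the adjusted p alone, 9 members were higher and 23 lower in library 1, and with TMM factors 8 and 30, with DESeq2 size factors 8 and 31. Over all genes, 3930 were higher and 2769 lower, and with TMM factors 2976 and 3592, with DESeq2 size factors 2951 and 3616. Of 249 log2 ratios recomputed, 218 kept their direction and their side of the threshold, 10 turned, 16 gained a pass by the adjusted p and 5 lost it. With TMM factors, Hspe1 (-0.040), Hsph1 (-0.027), Ahsa1 (-0.020) and Hsp90ab1 (-0.023) turned. With DESeq2 size factors, Hspe1 (-0.042), Hsph1 (-0.028), Ahsa1 (-0.021), Stub1 (-0.00018) and Hsp90ab1 (-0.024) turned. With totals without insulin and mitochondrial genes, Hspe1 (-0.0072) turned. With TMM factors and with DESeq2 size factors, Dnajb6, Cct2, Dnaja2, Cdc37, Hsp90aa1, Bag5 and Hsf1 gained a pass as lower in library 1, and Dnajb6 also did with totals without insulin and mitochondrial genes and with 100 or more reads. With no count filter, Hspa4l (0.068) and Bag1 (0.063) lost it. Hspb6 lost its pass by the adjusted p with TMM factors (0.19), DESeq2 size factors (0.20) and no count filter (0.051).

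The median level of the members, 56.9 TPM, was 54.3 TPM to 56.6 TPM in single libraries, 58.6 TPM over detected members, 66.9 on the CPM scale and 47.6 TPM without the 8 members of shared sequence. Without length scaling, the log2 ratios of Hspa8 over Hspa1b (0.36), Hspb8 over Hspb1 (0.26) and Ptges3 over Ahsa1 (-0.078) reversed, and 9 of the 17 mean ratios moved by over 1.5 times. The promoter share was 45.2% with 2 units, in place of 11.9%. At these depths a share of 0 cannot be told from one under 0.0599 CPM in library 1 or 0.0769 CPM in library 2.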
